A study of Macaca mulatta with 24 samples.

Results

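Interferon-stimulated genes are the genes that cells switch on when interferons, the secreted proteins of antiviral defence, bind their receptors. A list of 39 such genes was followed in omental white adipose tissue (WAT) of 24 female rhesus macaques. Each gene symbol was matched to a row of the raw count table through a gene name table, and where several rows matched, the one with the most counts was to be used. Of the 39 genes, 35 were found among the 32386 rows of the table, DDX58 under its current symbol RIGI. ISG15, IFIT2, IFIH1 and IFITM3 were not matched and were not analysed here. All 35 genes that were found passed the filter on low counts, which left 15207 genes tested.

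The study crossed an androgen treatment with a diet, in 4 groups of 6 animals. *C* animals had cholesterol implants and monkey chow, *T* animals testosterone implants and chow, *WSD* animals cholesterol implants and a high-fat Western-style diet, and *T* + *WSD* animals testosterone implants and that diet. The implants and diets were given for 3 years and the omental biopsies were taken under treatment, in year 3 by the labels and after 3 years by the study's methods. The labels give an age of 4 years for all animals, whereas the methods of the study describe older animals, so the age at biopsy is uncertain. The testosterone implants served as a model of raised androgens.

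RNA was sequenced after depletion of ribosomal RNA, and the values are raw counts per gene. Total counts per library ran from 6899185 to 28270776. The lowest, median and highest totals were 8873248, 20293398 and 22040690 in *C*, 13836058, 21995508 and 28270776 in *T*, 9006135, 22389113 and 23839192 in *WSD*, and 6899185, 20501758 and 21015713 in *T* + *WSD*. In 8 of the 24 libraries, 2 of each group, a single gene took over 5% of the counts. They were *C* replicates 1 and 2, *T* replicates 13 and 14, *WSD* replicates 19 and 20, and *T* + *WSD* replicates 7 and 8. The highest such share was 54.7%, in *T* + *WSD* replicate 8, and 16 libraries lay outside this set. Calls that ended without these 8 libraries are given with and without them.

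Levels are given as CPM, the counts of a gene per 1000000 counts of the normalised library. For the adipose label 12 adipocyte genes were read, of which 9 were matched and tested. All 9 had passed the filter on low counts, so their detection alone does not check the label. PLIN4, a coat protein of lipid droplets, was the most abundant of them, while FABP4, usually abundant in adipocytes, lay between 0.937 and 3.26 CPM, and the cause of its low level was not tested. Their summed level had a lowest, median and highest value of 1595, 7684 and 10805 CPM in *C*, 6080, 8813 and 15882 in *T*, 6784, 10247 and 13652 in *WSD*, and 10146, 12666 and 14474 in *T* + *WSD*. The lowest sum was that of *C* replicate 1.

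Type I and type III interferons signal through receptor-bound kinases to a complex that holds STAT2 and IRF9, which enters the nucleus and starts transcription of the genes described here. Their products sense viral RNA, degrade it, block its translation or stop viral assembly, and several of them feed back on the pathway itself. In adipose tissue, adipocytes, stromal cells and resident immune cells all carry interferon receptors, and a bulk biopsy holds RNA of each. For every difference below, fewer cells of a type and less RNA per cell cannot be told apart.

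The first question was how the combined treatment differed from the control. In *T* + *WSD* against *C*, 2 of the 35 genes, IRF9 and OAS1, were lower by edgeR's quasi-likelihood test (adjusted p under 0.05 over all tested genes and a fold change over 1.5), and 0 were higher. Both calls ended in the 16 libraries, and also with a mesothelial covariate described further on, with 0 of the 35 called in each. Among all tested genes 10% passed the same thresholds, 1522 of 15207, so the interferon-stimulated genes did not pass in a larger share than genes at large. Of the 35 log2 fold changes 24 lay below 0 and 11 above, with a median of −0.11 beside −0.04 over all tested genes. In the 16 libraries the balance turned, with 22 above 0 and 13 below and a median of 0.14. With all 24 animals and the 8 libraries as a covariate it did not turn. There 12 lay above 0 and 23 below, with a median of −0.15. At an unadjusted p under 0.05 there were 6 genes lower and 0 higher, and 32.1% of all tested genes passed that limit. DESeq2 called 3 of the 35, HERC6 besides IRF9 and OAS1. In 2 of the 35 genes, again IRF9 and OAS1, all 6 *T* + *WSD* animals were below all 6 *C* animals, beside 4.12% of all tested genes. The reverse order held for 0 of the 35, beside 3.49%.

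**Figure D1:**
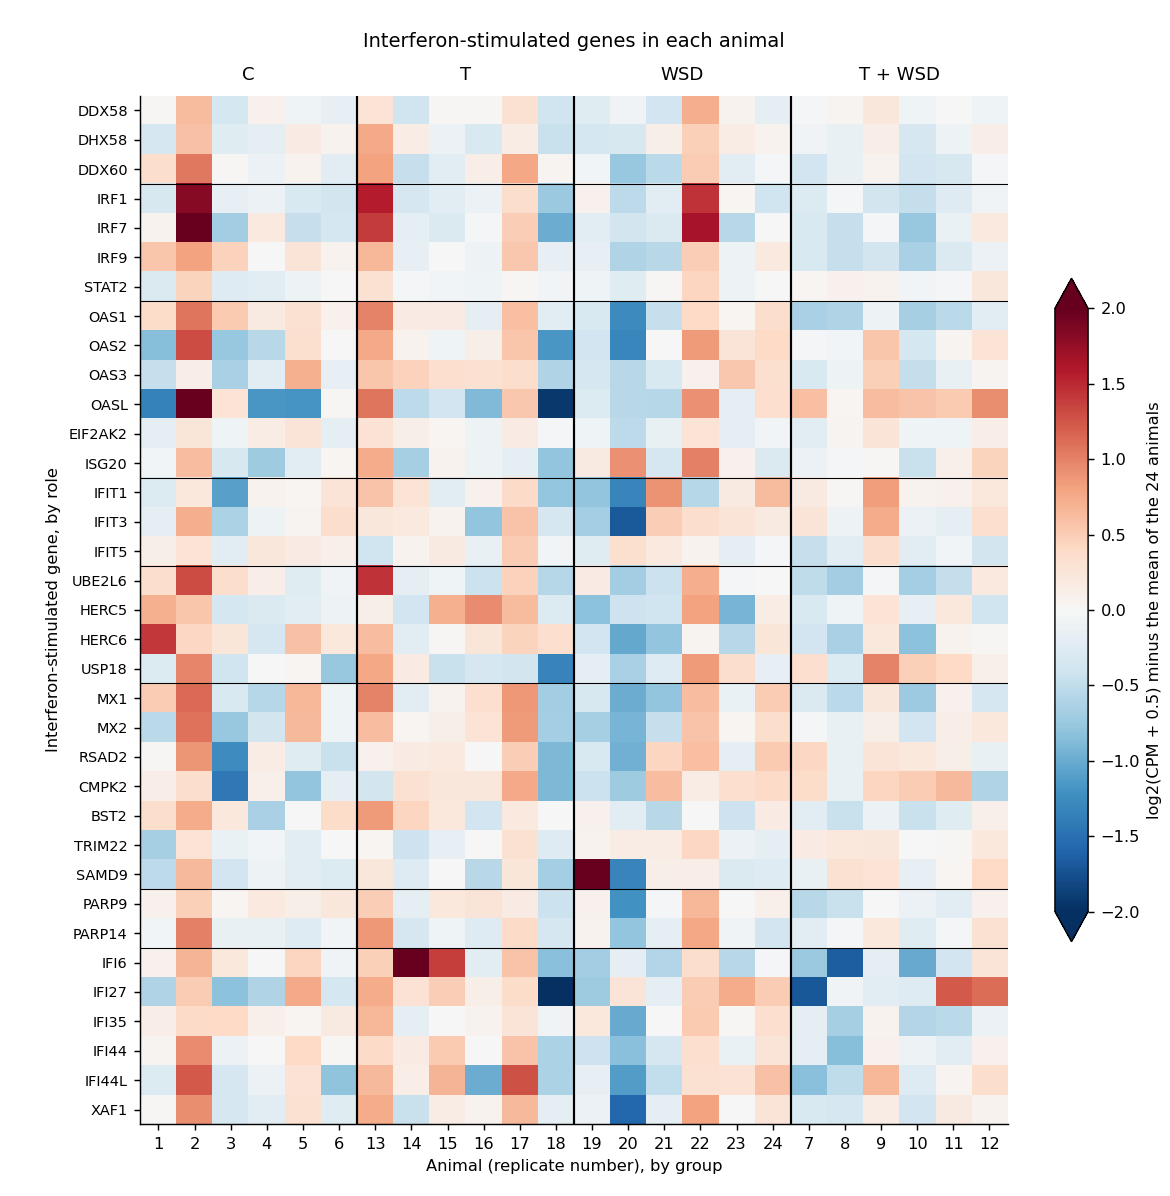
Heat map of the 35 interferon-stimulated genes, ordered by role, with 1 column for each of the 24 animals. Colour is log2 of CPM + 0.5 minus the gene's mean over the 24 animals, with colours ending at −2 and 2. Columns that are high for most genes include *C* replicate 2, *T* replicates 13 and 17 and *WSD* replicate 22, above the mean in 35, 33, 33 and 34 genes.

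Among the transcription factors, IRF9 had the clearest difference. IRF9 is the DNA-binding subunit of the complex that forms with STAT2 after type I interferon. Its lowest, median and highest levels were 46.2, 59.7 and 80.9 CPM in *C* and 29.2, 36.6 and 42.4 CPM in *T* + *WSD*. In the groups with a single treatment they were 41.1, 44.6 and 73.8 CPM in *T* and 30.4, 42.3 and 64.9 CPM in *WSD*. The *C* and *T* + *WSD* animals did not overlap, while both single treatments spread from the level of the *T* + *WSD* animals into that of the controls. IRF9 fell in *T* + *WSD* against *C*, with a log2 fold change of −0.75 (SE 0.19, edgeR adjusted p = 0.0121), a level 1.68-fold lower, and was not called in the 16 libraries (−0.54) or with the mesothelial covariate (−0.47). Against *T*, 5 of the 6 *T* + *WSD* animals were below the lowest *T* animal, but the log2 fold change of −0.53 did not pass (edgeR adjusted p = 0.0841).

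The other transcription factors had no called difference. STAT2, the partner of IRF9, had a log2 fold change of 0.11 (SE 0.12) in *T* + *WSD* against *C*. IRF1, which drives genes of the interferon gamma response, and IRF7, which amplifies type I interferon production, had values of −0.59 (SE 0.43) and −0.77 (SE 0.52), with edgeR adjusted p of 0.356 and 0.327. Single animals stood far above the others for both genes, as described further on.

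OAS1 belongs to the oligoadenylate synthetases, which make the messenger that activates RNase L after binding double-stranded RNA. Its lowest, median and highest levels were 11.6, 13.9 and 23.5 CPM in *C* and 6.70, 7.23 and 10.1 CPM in *T* + *WSD*. They were 9.25, 12.3 and 22.1 CPM in *T* and 4.20, 9.99 and 14.6 CPM in *WSD*. The highest *T* + *WSD* animal was below the lowest *C* animal, and the lowest of all animals was *WSD* replicate 20. OAS1 fell in *T* + *WSD* against *C* by 0.92 on the log2 scale (SE 0.26, edgeR adjusted p = 0.0180), a level 1.89-fold lower. It was not called in the 16 libraries (−0.65) or with the mesothelial covariate (−0.61).

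The other genes of this role did not follow OAS1. OAS3, a larger synthetase of the same family, had levels of 36.8, 50.3 and 95.0 CPM in *C* and 41.2, 52.8 and 80.7 CPM in *T* + *WSD*. In *T* they were 38.0, 73.3 and 85.1 CPM and in *WSD* 38.9, 53.9 and 83.9 CPM. The 4 groups of OAS3 overlapped over nearly their whole range. OASL, a family member without synthetase activity, had 0.337, 1.06 and 11.8 CPM in *C* and 1.70, 2.70 and 3.58 CPM in *T* + *WSD*. It had 0.0625, 1.06 and 3.96 CPM in *T* and 0.937, 1.32 and 3.51 CPM in *WSD*. The highest OASL value was that of *C* replicate 2, and the next *C* animal had 2.06 CPM. Across the 6 genes of the role, which adds OAS2, the kinase PKR (EIF2AK2) that halts translation, and the exonuclease ISG20, log2 fold changes in *T* + *WSD* against *C* ran from −0.92 to 0.11. OASL, at 0.07 with all animals, was at 1.34 in the 16 libraries, which do not hold *C* replicate 2, and at 1.46 without the 3 animals, then the highest value of the role, though not called.

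ISG15 is a ubiquitin-like protein, and although its own row was not matched, 4 genes of its enzymes were. HERC6 is a ligase of the same family as HERC5, the main ligase for ISG15 in primates. HERC6 had lowest, median and highest levels of 8.58, 13.9 and 30.1 CPM in *C* and 5.98, 9.69 and 12.7 CPM in *T* + *WSD*. The levels were 9.43, 13.5 and 17 CPM in *T* and 5.15, 7.79 and 13.1 CPM in *WSD*. All groups overlapped, and 3 of the 6 *T* + *WSD* animals were below the lowest *C* animal. Its log2 fold change in *T* + *WSD* against *C* was −0.75 (SE 0.27), which edgeR did not call (adjusted p = 0.0559) and DESeq2 did (adjusted p = 0.0422, in a range of 0.0289 to 1 over all alternatives). edgeR's newer quasi-likelihood method also called HERC6 (adjusted p = 0.0482), while its value was −0.45 without *C* replicate 1 and −0.29 in the 16 libraries, and changed sign to 0.043 with the mesothelial covariate. UBE2L6, the conjugating enzyme, and USP18, which removes ISG15 and restrains the receptor, lay on opposite sides of 0 at −0.73 and 0.47, and at −0.26 and 0.92 in the 16 libraries.

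IFI35, an interferon-induced leucine zipper protein, had levels of 24.7, 26.7 and 31.7 CPM in *C* and 15, 18.6 and 25.2 CPM in *T* + *WSD*. Levels of 20.8, 24.5 and 38.1 CPM were found in *T* and of 11.7, 26.0 and 34.8 CPM in *WSD*. Of the 6 *T* + *WSD* animals 5 were below the lowest *C* animal. The log2 fold change of −0.53 (SE 0.19) did not pass (edgeR adjusted p = 0.0612), though it was called without *T* + *WSD* replicate 9.

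The remaining roles held no call in this comparison. Of the 3 RNA sensors, the helicases RIG-I (DDX58) and LGP2 (DHX58) with DDX60, 0 lay above 0 with all animals, between −0.45 and −0.04, and 2 of the 3 lay above 0 in the 16 libraries. The 3 matched IFIT genes, whose proteins bind viral RNA ends and block translation, ran from −0.26 to 0.34. Restriction factors, 7 genes with the MX GTPases, viperin (RSAD2), CMPK2, tetherin (BST2), TRIM22 and SAMD9, had a median of 0.17 and ran from −0.57 to 0.50. PARP9 and PARP14, ADP-ribosyltransferase family members, were at −0.38 and −0.11, and at −0.18 and 0.25 in the 16 libraries. The 6 genes made up of the IFI proteins and XAF1 had 5 values below 0 and a median of −0.32, but 3 above and 3 below and a median of 0.02 in the 16 libraries. edgeR called 0 genes in these 5 roles, where BST2 and IFI35 were the genes at an unadjusted p under 0.05 and DESeq2 also called 0. With all animals the 27 genes not given with group values ran from −0.77 to 0.50, 9 of them above 0, with 0.125 as their smallest edgeR adjusted p, that of BST2.

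**Figure D2:**
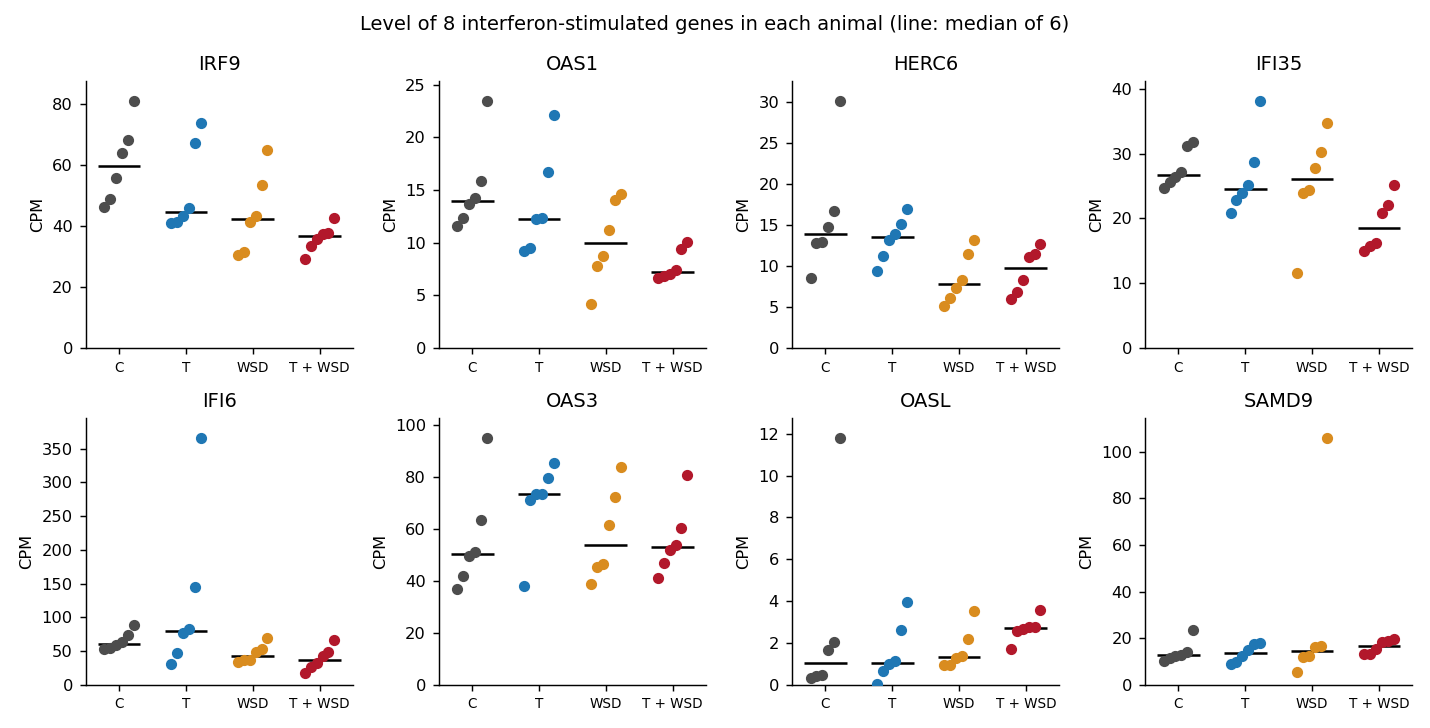
Levels of 8 genes in CPM (y axis, starting at 0) in the 4 groups, with each point an animal and the line the median of the 6 animals. For IRF9 the *T* + *WSD* animals lie between 29.2 and 42.4 CPM and the *C* animals between 46.2 and 80.9 CPM, while single animals stand apart for IFI6 in *T* (366 CPM) and SAMD9 in *WSD* (106 CPM).

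Mesothelial genes moved with this comparison. Mesothelium is the cell layer that covers the omentum, and 11 of its 13 marker genes were matched, with intelectin 1 (ITLN1) as the most abundant. Of these 11 genes, 9 were lower in *T* + *WSD* than in *C* by edgeR and 0 were higher. Their summed level had a lowest, median and highest value of 2785, 7872 and 39874 CPM in *C*, 2875, 3934 and 18030 in *T*, 810, 4599 and 6230 in *WSD*, and 284, 1076 and 3265 in *T* + *WSD*. The mean log2 level of the mesothelial genes was 6.07 to 7.58 in the *C* animals and 2.90 to 5.23 in the *T* + *WSD* animals, so the 2 groups do not overlap, and in this comparison mesothelial level and treatment cannot be told apart. With that mean as a covariate, 0 of the 35 interferon-stimulated genes and 0 of all tested genes were called by edgeR. The log2 fold changes of IRF9 and OAS1 were then −0.47 and −0.61, both with an edgeR adjusted p of 1 (over all alternatives 0.00323 to 1 and 0.00633 to 1). At an unadjusted p under 0.05, 0 of the 35 remained with that covariate, and 464 of all tested genes. Among the 16 libraries in which no gene took over 5% of the counts, 0 of the 35 were called by edgeR, and 78 of all tested genes (0.505%) were called. There 5 genes were at an unadjusted p under 0.05, IRF9, OAS1 and IFI35 lower and USP18 and CMPK2 higher, beside 21.1% of tested genes. There IRF9 was at −0.54 (edgeR adjusted p = 0.151) and OAS1 at −0.65 (0.124).

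The second question was what the diet did without testosterone. In *WSD* against *C*, edgeR called 0 of the 35 genes, beside 0% of all tested genes, and 4 were at an unadjusted p under 0.05, beside 18.5%. Those 4 were SAMD9 above 0 and IRF9, OAS1 and HERC6 below. HERC6 had the smallest p, with a log2 fold change of −0.89 (SE 0.27, edgeR adjusted p = 0.136), and was the 1 gene that DESeq2 called (adjusted p = 0.0449, in a range up to 0.634 over the other alternatives). IRF9 was at −0.45 (SE 0.19) and OAS1 at −0.56 (SE 0.25), with edgeR adjusted p of 0.211 and 0.239. These values were nearer 0 without the 8 libraries with 1 gene over 5% of the counts. In the other 16, IRF9 was at −0.15, OAS1 at −0.16, HERC6 at −0.43 and SAMD9 at 0.19. There the genes at an unadjusted p under 0.05 were STAT2, RSAD2 and CMPK2, all higher, beside 11.6% of tested genes, and they were named after their values were seen. Of the 35 values 23 lay below 0 with all animals, and the median was −0.12 beside −0.02 over all tested genes. In the 16 libraries the direction turned, with 27 above 0 and 8 below and a median of 0.24 beside −0.01. With all animals and the 8 libraries as a covariate it did not turn, with 13 above, 22 below and a median of −0.13. The 16 libraries also leave out *C* replicate 2 and *WSD* replicate 20. These animals had the highest and lowest mean level of the 35 genes, as described further on. In 0 of the 35 genes were all *WSD* animals above or all below the controls, beside 0.230% and 0.171% of tested genes.

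SAMD9, an interferon-induced gene that restricts poxviruses, rested on a single *WSD* animal. It had 5.69, 14.3 and 106 CPM in *WSD*, where the highest value was that of *WSD* replicate 19 and the next animal had 16.5 CPM. The other groups had 10.2, 12.6 and 23.6 CPM in *C*, 9.13, 13.6 and 17.8 CPM in *T*, and 13.2, 16.8 and 19.8 CPM in *T* + *WSD*. Apart from that animal the groups overlapped. The log2 fold change in *T* + *WSD* against *WSD* was −0.76 (SE 0.47, edgeR adjusted p = 0.377), and it turned to 0.37 without *WSD* replicate 19 and to 0.23 in the 16 libraries.

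The third question was what testosterone did on chow. In *T* against *C*, edgeR called 0 of the 35 genes, beside 0% of all tested genes, DESeq2 called 0, and 1 was at an unadjusted p under 0.05, beside 8.63%. With all animals 18 values lay above 0 and 17 below. In the 16 libraries 25 lay above and 10 below, with a median of 0.10, and without *C* replicate 2, *T* replicate 13 and *WSD* replicate 22, a choice explained further on, 27 above and 8 below, with a median of 0.09. Complete separation of the animals was seen for 0 of the 35 genes in either direction, beside 0.138% of tested genes above and 0.125% below. OAS3 was at 0.32 (SE 0.23, edgeR adjusted p = 0.715), and at 0.14 in the 16 libraries, and IRF9 at −0.21 (SE 0.19, 0.762).

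The single gene at an unadjusted p under 0.05 was IFI6, which encodes a small membrane protein that limits flavivirus replication and cell death. Its lowest, median and highest levels were 52.4, 61.0 and 88.3 CPM in *C* and 30.6, 79.2 and 366 CPM in *T*. They were 33.8, 42.5 and 69.9 CPM in *WSD* and 17.2, 37.5 and 66.0 CPM in *T* + *WSD*. The *T* group overlapped all the others and reached far above them, with *T* replicate 14 at its top and 145 CPM in the animal after it. In *T* against *C* the log2 fold change was 0.93 (SE 0.42, edgeR adjusted p = 0.568). It was 0.22 without *T* replicate 14 and 0.32 in the 16 libraries. In those libraries the 1 gene at an unadjusted p under 0.05 was HERC5, beside 10.1% of tested genes. HERC5 was at 0.85 there and at 0.29 with all animals.

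Testosterone on top of the diet, *T* + *WSD* against *WSD*, gave 0 of 35 genes called by edgeR, beside 0.815% of all tested genes, and 0 by DESeq2. The 1 gene at an unadjusted p under 0.05, beside 20% of tested genes, was IFI35, with a log2 fold change of −0.41 (SE 0.19, edgeR adjusted p = 0.239). Of the 35 values 15 lay above 0 and 20 below, and the median was −0.03, as over all tested genes. The balance differed in other sets of animals: without the 3 animals named above, a choice that raises these values, 23 lay above 0 and 12 below, with a median of 0.12 beside −0.02, and in the 16 libraries 9 lay above and 26 below, with a median of −0.09.

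Adding the diet to testosterone, *T* + *WSD* against *T*, gave 1 of 35 genes called by edgeR, beside 3.77% of all tested genes. IFI6 fell by 1.66 on the log2 scale (SE 0.43, edgeR adjusted p = 0.0289), a level 3.16-fold lower, and 2 of the 6 *T* + *WSD* animals were below the lowest *T* animal. The call depended on the fit and on single libraries. Without *T* replicate 14 the log2 fold change was −0.95 (edgeR adjusted p = 0.0690), and without *T* + *WSD* replicate 7, 8 or 10 the adjusted p was 0.0555, 0.0661 and 0.0658, in a range of 0.00363 to 0.521 over all alternatives. With only these 2 groups in the fit it was −1.63 (edgeR adjusted p = 0.0637) and OAS1 was called instead. With the mesothelial covariate it was −1.72 (edgeR adjusted p = 0.521), and in this comparison too mesothelial genes were lower, 7 of 11 by edgeR and 1 of 11 in the 16 libraries. IFI6 was at −0.72 in the 16 libraries, also not called (edgeR adjusted p = 0.274). Other genes at an unadjusted p under 0.05, beside 25.9% of tested genes, brought the count with all animals to 5, all lower: IRF9, OAS1 (−0.78, edgeR adjusted p = 0.0643), BST2 and IFI35. DESeq2 called IFI6 and OAS1. The median of the 35 was −0.28 beside −0.03 over all tested genes, with 23 values below 0. It was −0.07 without the 3 animals, again a choice that raises the values, and −0.11 in the 16 libraries, with 16 values above 0 and 19 below in each. At an unadjusted p under 0.05 the 16 libraries held 1 lower gene, OAS1, and 1 higher, USP18, beside 24.4% of tested genes. USP18 was at 1.31 there (edgeR adjusted p = 0.0598) and at 0.64 with all animals. Without the 3 animals 2 were higher, OASL and USP18, and 3 lower, IRF9, OAS1 and IFI6, beside 22.9%.

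The interaction asks whether the combination differs from the sum of the separate effects on the log2 scale. edgeR called 0 of the 35 genes at an adjusted p under 0.1, beside 0.809% of all tested genes. At an unadjusted p under 0.05 there were 0 by edgeR, beside 13.5% of tested genes, and 1 by DESeq2, which called 0. Of the 35 values 10 lay above 0 and 25 below, with a median of −0.12 beside −0.02 over all tested genes. In the 16 libraries 7 lay above and 28 below, with a median of −0.22. Without the 3 animals 14 lay above and 21 below, with a median of −0.01. The smallest edgeR adjusted p was that of IFI6, 0.402, with an interaction of −1.17 (SE 0.60), which was −0.47 without *T* replicate 14 and −0.40 in the 16 libraries. OASL had 1.37 (SE 1.07, edgeR adjusted p = 0.628), which was 0.019 without *C* replicate 2 and 0.60 in the 16 libraries. IFI35 had −0.34 (SE 0.27, edgeR adjusted p = 0.634), −0.39 in the 16 libraries and −0.13 without the 3 animals. IRF9 and OAS1 had −0.08 (SE 0.27) and −0.22 (SE 0.36), so for these genes a departure from additive effects was not detected.

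**Figure D3:**
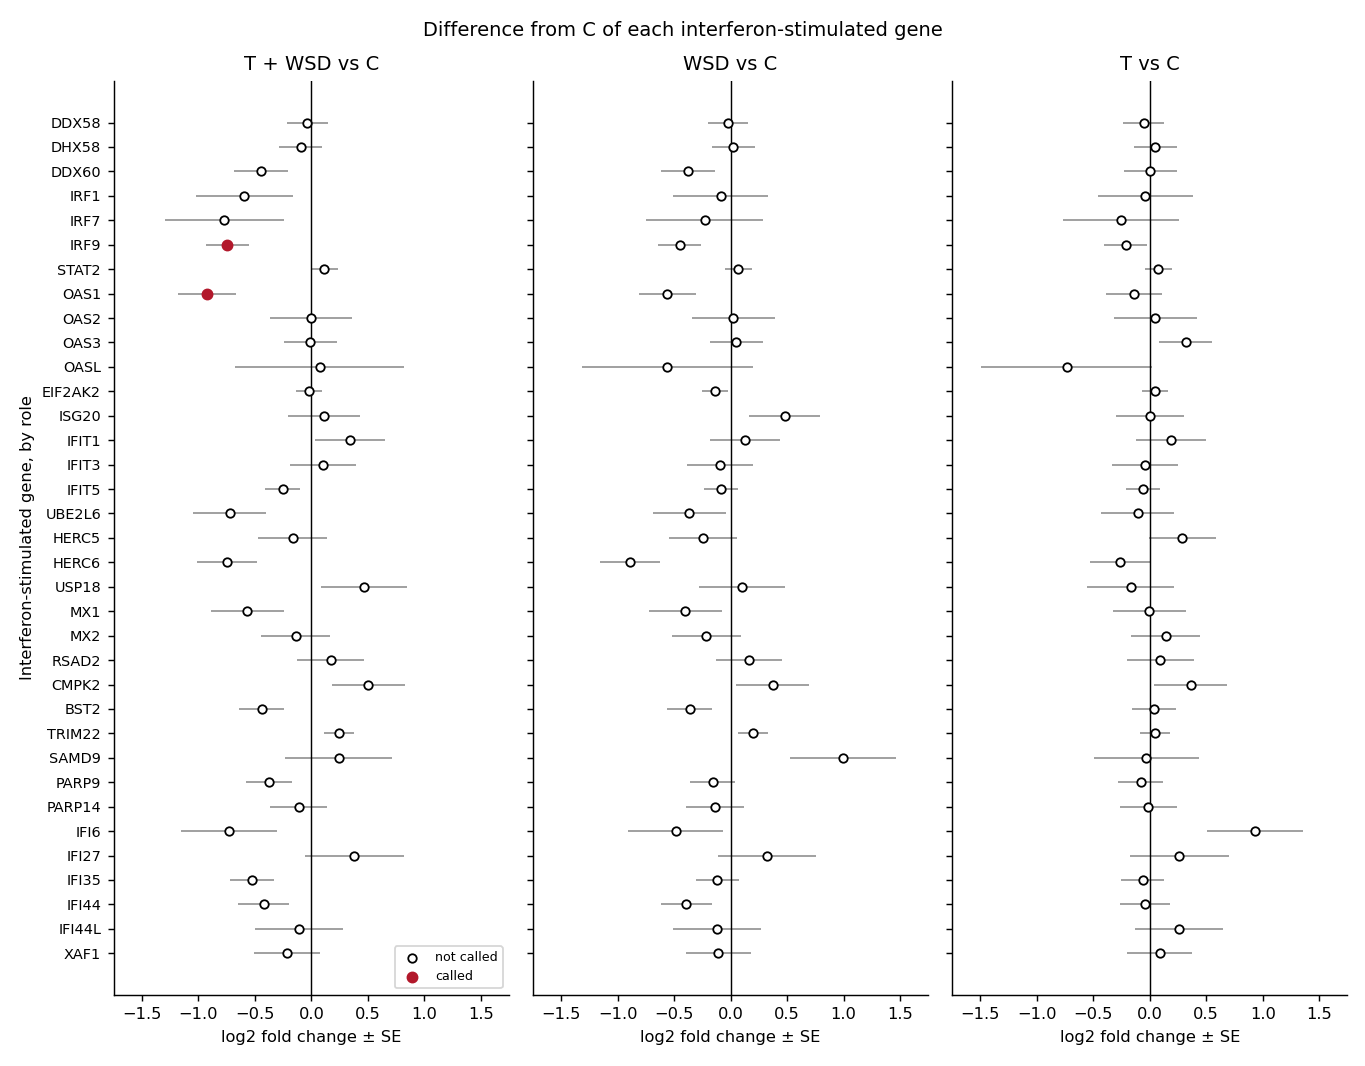
Log2 fold changes of the 35 genes against *C* (x axis), ordered by role (y axis), in *T* + *WSD*, *WSD* and *T*, with bars for the standard error and filled red points for genes called by edgeR. IRF9 (−0.75) and OAS1 (−0.92) are called in *T* + *WSD* and no gene is called in the other panels, and all 3 comparisons share the 6 *C* animals.

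The comparisons against *C* share their 6 control animals, and those with *T* + *WSD* share that group, so their values are not independent of each other. In each of the 3 comparisons against *C*, IRF9 was at −0.75, −0.45 and −0.21 in the order *T* + *WSD*, *WSD* and *T*. OAS1 was at −0.92, −0.56 and −0.14 in the same order. Without the 8 libraries the order was the same, but *WSD* lay close to *T*. In the other 16, IRF9 was at −0.54, −0.15 and −0.11 and OAS1 at −0.651, −0.160 and −0.155.

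Animals of the same group differed widely in these genes. For each animal, the log2 CPM (with the pseudocount of 0.5) of each gene was set against that gene's mean over the 24 animals and averaged over the 35 genes. *C* replicate 2 stood at 0.83, *T* replicate 13 at 0.60 and *WSD* replicate 22 at 0.52, and *T* replicate 17 followed at 0.43. At the other end stood *WSD* replicate 20 at −0.66 and *T* replicate 18 at −0.57. The *T* + *WSD* animals lay between −0.27 and 0.20. Each of the other 3 groups thus held an animal above and, apart from *C*, an animal below all *T* + *WSD* animals, and the range within the group was 0.479 in *T* + *WSD*, 1.10 in *C*, 1.17 in *T* and 1.18 in *WSD*. Without the highest animal of each group the order of *C* and *T* + *WSD* turned, with ranges of 0.331 and 0.389, beside 0.796 in *WSD* and a wider one in *T*.

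**Figure D4:**
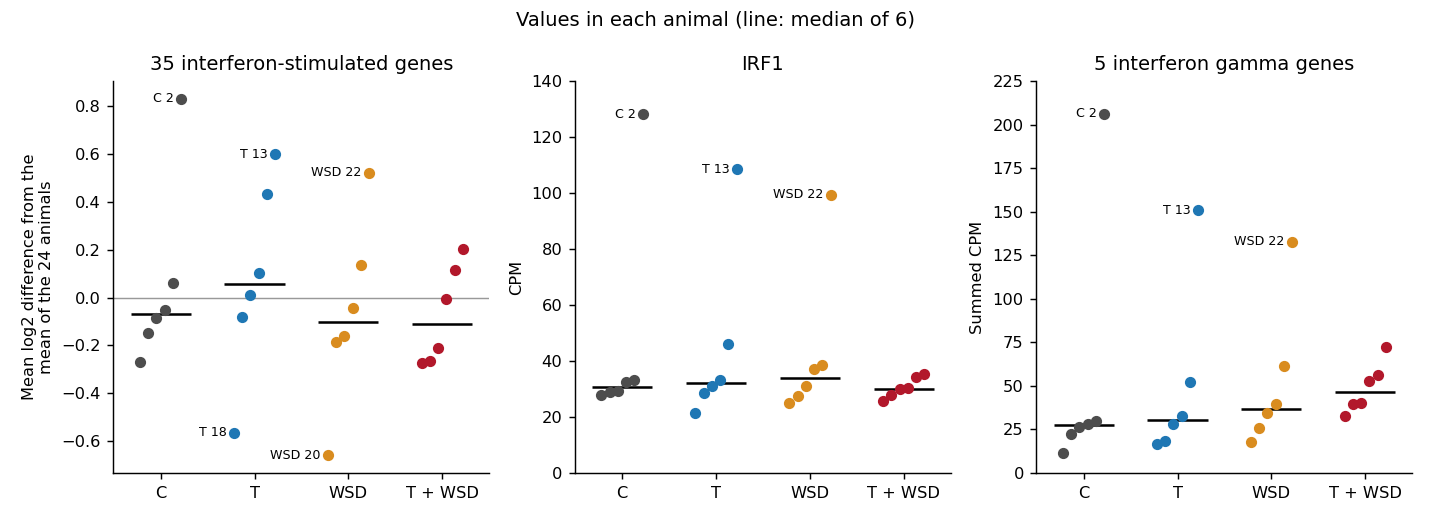
Mean log2 difference of the 35 genes from their mean over the 24 animals (left), IRF1 in CPM (middle) and the summed CPM of 5 interferon gamma genes (right) in the 4 groups, with each point an animal and the line the median of the 6 animals. *C* replicate 2, *T* replicate 13 and *WSD* replicate 22 are the highest of their groups in each panel, with IRF1 at 128, 108 and 99.3 CPM, and the *T* + *WSD* animals lie between −0.27 and 0.20 on the left.

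The pattern held across genes. *C* replicate 2 was the highest animal of its group in 28 of the 35 genes, and in 17% of all tested genes. *T* replicate 13 was highest in 23, beside 20.1% of tested genes, and *WSD* replicate 22 in 25, beside 13.7%. In *T* + *WSD* the animal most often highest was replicate 9, in 16 genes, beside 13.6%. The lowest of the *T* group was replicate 18 in 22 genes, beside 17.1%, and of the *WSD* group replicate 20 in 24, beside 24.3%. Over all 24 animals *C* replicate 2 had the highest level in 14 of the 35 genes, beside 4.16% of tested genes.

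IRF1, IRF7 and PARP14 are given as examples of genes that show these animals, and were chosen after their values were seen. IRF1 was at 128 CPM in *C* replicate 2 while the other *C* animals lay between 28.0 and 33.1 CPM. The same gene was at 108 CPM in *T* replicate 13 and 99.3 CPM in *WSD* replicate 22, and in *T* + *WSD* it ran from 25.7 to 35.3 CPM. IRF7 reached 23.3, 13.7 and 16.2 CPM in those 3 animals, against 2.65 to 5.66 CPM in *T* + *WSD*. PARP14 was at 153, 139 and 131 CPM in them, and at most 94.2 CPM in *T* + *WSD*. *T* replicate 17 also lay above all *T* + *WSD* animals for the 3 genes, at 46.1, 7.04 and 99.7 CPM. *C* replicate 2 and *T* replicate 13 were among the 8 libraries with 1 gene over 5% of the counts, at 40.2% and 19.9%, and *WSD* replicate 22 was not, at 1.42%. What set these animals apart was not tested.

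These 3 animals were left out together, a choice made after seeing the data. Leaving out the highest animals of the other groups raises the values of *T* + *WSD* against them by construction. In *T* + *WSD* against *C*, 22 of the 35 values then lay above 0 and 13 below, 11 genes had changed sign, and the median was 0.05 beside −0.01 over all tested genes. IRF1 went from −0.59 to 0.04 and IRF7 from −0.77 to 0.03. IRF9 and OAS1 were called without them too, at −0.62 (edgeR adjusted p = 0.0125) and −0.74 (0.0279). At an unadjusted p under 0.05 there were 5 genes lower, IRF9, OAS1, UBE2L6, HERC6 and IFI35, and 4 higher, STAT2, OASL, USP18 and TRIM22, named after their values were seen. In the same fit 32.3% of all tested genes passed that limit and 10.4% were called, so neither count was a larger share than among genes at large. Because the animals were chosen for high values of these genes, the change of the median does not show what it rested on with all animals.

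**Figure D5:**
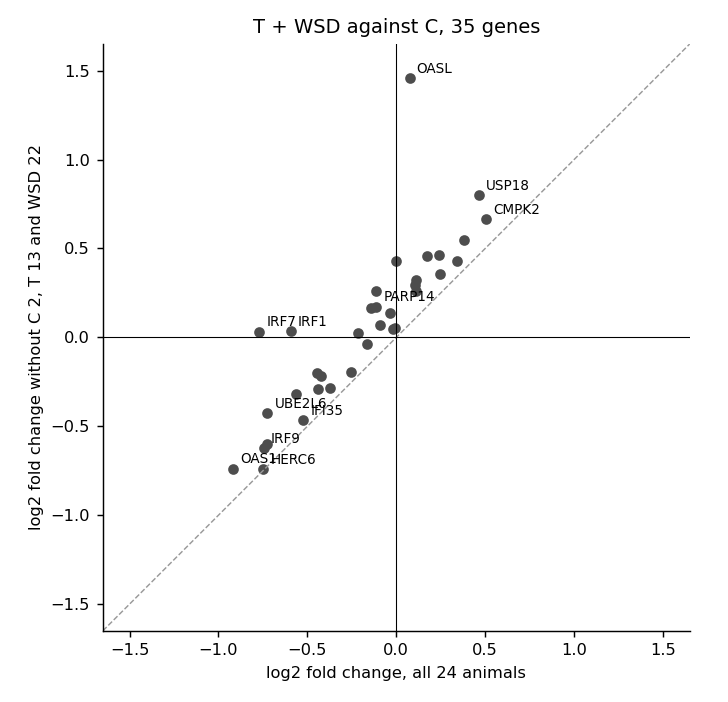
Log2 fold change of each of the 35 genes in *T* + *WSD* against *C* with all 24 animals (x axis) and without *C* replicate 2, *T* replicate 13 and *WSD* replicate 22 (y axis), with a dashed line where both are equal. IRF1 and IRF7 move from −0.59 and −0.77 to 0.04 and 0.03, whereas IRF9 and OAS1 move from −0.75 and −0.92 to −0.62 and −0.74.

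The spread within groups was described as well. With all animals *T* + *WSD* had the smallest standard deviation of log2 CPM of the 4 groups in 28 of the 35 genes, and in 50.1% of all tested genes. The median standard deviation was 0.29 in *T* + *WSD*, 0.47 in *C*, 0.48 in *T* and 0.54 in *WSD*. Over all tested genes it was 0.21, 0.31, 0.27 and 0.30 in the same order, so *T* + *WSD* had the smallest there too. Without the 3 animals *T* + *WSD* had the smallest spread in 18 of the 35 genes, beside 45.1% of tested genes, and the medians were 0.29 in *T* + *WSD* and 0.27 in *C*. In the 16 libraries it had the smallest in 11, beside 45.3%, and *C* in 13, beside 15.7%. The medians of the 35 genes were then 0.27 in *T* + *WSD* and 0.26 in *C*, so *C* no longer spread more widely in them. Over all tested genes these medians were 0.17 and 0.26. The difference in spread was described by these counts and not tested.

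Other genes of the interferon pathway were described from lists by step. Of 12 interferon genes, 3 were matched, IFNB1, IFNL1 and IFNL3, with at most 1 count in any animal, and none was tested. The interferon alpha genes of the list and IFNG had no matched row, so the ligands could not be measured with this depth and annotation. Of 10 genes for receptors and receptor signalling, 8 were tested and 0 called by edgeR or DESeq2 in *T* + *WSD* against *C*, with 1 at an unadjusted p under 0.05, the interferon gamma receptor chain IFNGR2 at −0.25 (SE 0.11, edgeR adjusted p = 0.123), and at −0.10 without the 3 animals. The feedback inhibitors had 3 genes tested and 0 called by edgeR or DESeq2, with 1 at an unadjusted p under 0.05, PIAS1, which restrains STAT proteins, at −0.22 (SE 0.10, edgeR adjusted p = 0.107), and at −0.11 in the 16 libraries.

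Of 58 tested pathway genes, edgeR called TLR3 in *T* + *WSD* against *C*, with 10 at an unadjusted p under 0.05, and DESeq2 called 2. Neither edgeR count was a larger share than the 10% and 32.1% among all tested genes. TLR3, the endosomal receptor for double-stranded RNA, had lowest, median and highest levels of 16.2, 22.6 and 33.0 CPM in *C* and 30.0, 42.3 and 49.8 CPM in *T* + *WSD*. The levels of these groups overlapped only between 30.0 and 33.0 CPM. TLR3 rose in *T* + *WSD* against *C*, with a log2 fold change of 0.77 (SE 0.22, edgeR adjusted p = 0.0207), as 1 of 14 tested genes of sensing and induction. TLR3 was at 0.79 in the 16 libraries (edgeR adjusted p = 0.105), and with the mesothelial covariate at 0.51 with an adjusted p of 1. Of 22 further interferon-stimulated genes 8 lay above 0 and 14 below, but 12 above and 10 below in the 16 libraries, with 0 called by edgeR or DESeq2 and 2 at an unadjusted p under 0.05. The smaller p was that of IRF2, a repressor of interferon-driven transcription, at −0.29 (SE 0.11, edgeR adjusted p = 0.0755), and at −0.18 in the 16 libraries. In the other comparisons edgeR and DESeq2 called 0 of the 58 genes. The counts at an unadjusted p under 0.05 were 6 in *WSD* against *C* (18.5%), 2 in *T* against *C* (8.63%), 5 in *T* + *WSD* against *WSD* (20%), 5 in *T* + *WSD* against *T* (25.9%) and 1 in the interaction (13.5%), the shares in brackets being those over all tested genes.

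Genes of the interferon gamma response and of class I antigen presentation held no call by edgeR, 0 of 5 and 0 of 6 genes in *T* + *WSD* against *C*, with 0 and 3 at an unadjusted p under 0.05 and 0 and 1 called by DESeq2. The chemokine CXCL10 was at −2.39 (SE 1.21, edgeR adjusted p = 0.175), at −0.60 without the 3 animals and −0.42 in the 16 libraries. ERAP1, which trims peptides for class I molecules, was at −0.42 (SE 0.16, edgeR adjusted p = 0.0781), and at −0.14 in the 16 libraries. The class I gene that DESeq2 called was not ERAP1 but NLRC5, which was higher. Its median was 55.8 CPM in *C* and 112 CPM in *T* + *WSD*. Of the 3 class I genes at an unadjusted p under 0.05, 1 was higher and 2 were lower. Summed over the 5 interferon gamma genes, the lowest, median and highest levels were 11.5, 27.5 and 206 CPM in *C*, 16.5, 30.5 and 151 in *T*, 18, 36.9 and 133 in *WSD*, and 32.5, 46.2 and 72.2 in *T* + *WSD*. The highest animals were again *C* replicate 2, *T* replicate 13 and *WSD* replicate 22. The class I genes summed to 577, 515 and 533 CPM in those animals, while *T* + *WSD* ran from 290 to 401 CPM.

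Markers of other cell types were read in the same comparison, *T* + *WSD* against *C*. Of 8 endothelial genes, VWF being the most abundant, 5 were higher by edgeR, and their summed level was 1034, 1449 and 1731 CPM in *C* and 1951, 2236 and 3027 CPM in *T* + *WSD*. Of 10 macrophage genes 1, MSR1, was higher, of 8 fibroblast genes 1, DPT, was higher, and of 9 adipocyte genes 1, LEP, was higher. Among all tested genes 10% were called, so a single call in lists of this size is about the share among genes at large. The macrophage genes had 5 values above 0 and 5 below, the fibroblast genes 4 and 4, and the adipocyte genes 7 and 2. Of 7 neutrophil genes 2, S100A8 and S100A9, were lower, while 4 of the 7 lay above 0 and 3 below, with a median of 0.14. All calls of the 71 tested marker genes ended in the 16 libraries and with the mesothelial covariate, with 0 called in each. That covariate is the mean of the mesothelial genes themselves, and 0 of all tested genes were called with it. The loss of calls with it therefore decides nothing about single markers. Of 11 mesothelial genes 9 were lower in the 16 libraries at an unadjusted p under 0.05 and of 8 endothelial genes 5 were higher, beside 21.1% of tested genes. edgeR called 0 of 8 T and NK cell genes, 0 of 4 B and plasma cell genes, 0 of 4 erythroid genes and 0 of 2 plasmacytoid dendritic cell genes. At an unadjusted p under 0.05 those 4 lists had 0, 0, 0 and 1 genes, and DESeq2 called 0, 0, 0 and 1, the last being TCF4. TCF4 had a mean of 298 CPM, while CLEC4C and PACSIN1 of the same list had 20 and 72 counts in total and were not tested. The call of TCF4 alone therefore does not show a change of plasmacytoid dendritic cells. No marker of these lists was at 0 in every animal. The endothelial sums of the *C* and *T* + *WSD* animals did not overlap. The part of cell composition in the lower IRF9 and OAS1 was not tested.

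Several of the 35 genes lie next to each other in the genome. In the T2T-MMU8v2.0 assembly, which was used only for gene order, 6 pairs of them have no other annotated protein-coding gene between them: IFI44 and IFI44L, OAS1 and OAS3, RSAD2 and CMPK2, MX1 and MX2, HERC6 and HERC5, and IFIT1 and IFIT5. In *T* + *WSD* against *C* the genes of 5 of the 6 pairs had log2 fold changes of the same sign, and IFIT1 and IFIT5 differed. The count was 4 in *WSD* against *C*, 1 in *T* against *C*, 3 in *T* + *WSD* against *WSD*, 5 in *T* + *WSD* against *T* and 3 in the interaction. These counts are for all animals. In *T* + *WSD* against *C* 24 of the 35 values lay below 0, so genes that are not neighbours often shared a sign too. Whether neighbours did so more often was not tested. In the 16 libraries only RSAD2 and CMPK2, at 0.52 and 0.86, shared a sign in *T* + *WSD* against *C*. Without the 3 animals left out together, only that pair and HERC6 with HERC5 did. Size was not shared within pairs: OAS1 was at −0.92 and OAS3 at −0.01, and HERC6 at −0.75 and HERC5 at −0.17. Reads that fit more than 1 of such related genes could affect these values, which was not tested, since the counting settings are not known.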

How the data were processed

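Total RNA from omental WAT of 24 animals (4 groups of 6) was sequenced after ribosomal RNA depletion. The submitters' processing notes name FastQC 0.11.5, Trimmomatic 0.36, STAR 2.5.2b and DESeq2 1.18.1, with alignment to rheMac8. The authors deposited raw counts per Ensembl gene, without normalisation, and the counting tool and its strand setting are not stated. Symbols were matched through a gene name table. LY6E, SOCS3, KRT8 and CLDN5 could be placed only through lists of genes selected by their result, so they were left out of the pathway and marker lists, a choice made after seeing the data.

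From these counts, R 4.3.3 with edgeR 4.0.16 was used for 1 quasi-likelihood fit of the 4 group means (TMM normalisation, filterByExpr with its defaults, robust, legacy method), with Benjamini-Hochberg adjustment over 15207 genes. Genes were called where the adjusted p was below 0.05 with a change of more than 1.5-fold, or, for the interaction, where it was below 0.1. CPM are counts per 1000000 of the TMM-scaled library size, with a pseudocount of 0.5 for log2 values, and totals between 6899185 and 28270776 set their precision.

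Group values were given for genes called in any comparison, for the 3 with the smallest p in each, for those with complete separation of the animals in a comparison against *C*, and for those called by DESeq2 there. Of each pathway list, called genes or else the gene with the smallest p were named. Pathway and marker lists were written from general knowledge. The genes followed and the lists were chosen with earlier results of these data known.

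Alternatives were DESeq2's size factors (RLE), no filter, the newer quasi-likelihood method, only the groups compared, the 8 libraries with 1 gene over 5% of counts as a covariate or left out, the mean of the mesothelial genes as a covariate, each animal left out in turn, *C* replicate 2, *T* replicate 13 and *WSD* replicate 22 left out together, no fold-change threshold, and DESeq2 1.42.0. The edgeR fit of the 4 groups was tested on simulated data. No sample was left out otherwise.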

Additional observations from a re-analysis of the deposited data

Results flagged for a closer look

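In each group of 6 animals, the gap of the highest or lowest animal to its nearest neighbour was divided by the group's range and compared with Dixon's critical value for 6 samples. For normally distributed values chance passes that value in about 1 in 20 groups, and here 30 of 140 groups passed. Levels entered as CPM and not as log2 values, and whether they were normally distributed was not tested. IRF1, IRF7 and PARP14 were chosen after their values were seen, for showing single animals, and gave 6 of these. Without them 24 of 128 groups passed, 9 with *C* replicate 2 as the animal at the end, 4 with *T* replicate 13 and 3 with *WSD* replicate 22. Other genes tested were named for their differences, and all groups share their animals, so these counts are a description and not a test against the chance rate.

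For *C* replicate 2 the values were 0.642 for OAS1, 0.850 for OASL, 0.723 for SAMD9, 0.949 for IRF1, 0.862 for IRF7, 0.896 for PARP14 and 0.910 for CXCL10, all as the highest animal. The same animal had 0.906 for the interferon gamma genes, 0.844 for class I antigen presentation and 0.780 for the B and plasma cell genes, as summed levels. Its mean deviation over the 35 genes gave 0.699, and its total count, the lowest of the group, gave 0.658. *T* replicate 13 was the highest animal with 0.716 for IRF1, 0.942 for CXCL10, 0.733 for the interferon gamma genes, 0.719 for class I antigen presentation and 0.715 for the neutrophil genes. *WSD* replicate 22 was the highest with 0.820 for IRF1, 0.871 for IRF7, 0.694 for CXCL10, 0.773 for the further interferon-stimulated genes and 0.828 for class I antigen presentation.

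Other animals were at an end for fewer values. SAMD9 gave 0.893 for *WSD* replicate 19 and IFI6 0.660 for *T* replicate 14, both as the highest. OAS3 gave 0.701 for *T* replicate 18 as the lowest. PIAS1 gave 0.688 for *C* replicate 1 and IFNGR2 0.736 for *T* + *WSD* replicate 8, both as the highest. Mesothelial sums gave 0.806 for *C* replicate 1 and 0.848 for *T* replicate 18, and the erythroid sum gave 0.706 for *T* replicate 16, all as the highest.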

How the results depend on the processing

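Over the alternatives and each animal left out in turn, 583 log2 fold changes of the named genes kept their direction and their side of the threshold, 11 kept direction and lost the call, 9 gained it, and 3 changed sign. In *T* + *WSD* against *C* the count of called genes was 0 in the 16 libraries and 0 with the mesothelial covariate, 3 with DESeq2 and with the newer quasi-likelihood method (HERC6 added), 2 (IRF9 and OAS1) with the library covariate, and 2 to 3 with each animal left out (HERC6 or IFI35 added). In *WSD* against *C* it was 1 with DESeq2. In *T* + *WSD* against *T* it was 0 in the 16 libraries, 0 with the mesothelial covariate and 2 with DESeq2, and 0 to 2 with each animal left out. With only those 2 groups in the fit, the 1 gene called was OAS1 in place of IFI6. HERC6 in *T* + *WSD* against *C* was at 0.043 with the mesothelial covariate, and SAMD9 in *T* + *WSD* against *WSD* was at 0.23 in the 16 libraries and 0.37 without *WSD* replicate 19, in a range of −0.97 to 0.37 with each animal left out. The cause was not tested, and the 16 libraries hold fewer animals. IRF9 in *T* + *WSD* against *C* ranged from −0.81 to −0.47 and OAS1 from −1.01 to −0.61. Leaving out *C* replicate 2, *T* replicate 13 and *WSD* replicate 22 together, chosen after seeing the data, gave 2 called genes in *T* + *WSD* against *C*. No paired analysis was possible because no 2 groups share replicate numbers. Groups of 6 and the wide spread between animals limit what could be detected, and OASL, USP18, ISG20 and IRF7 had the fewest counts of the 35 genes.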

Other observations

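Of 11 mesothelial genes, 7 were lower by edgeR in *T* + *WSD* against *T*, 1 of 10 macrophage genes (MSR1) was higher and 1 of 7 neutrophil genes (S100A9) was lower, where 3.77% of all tested genes were called. In the 16 libraries these counts were 1 for the mesothelial, 1 for the macrophage and 0 for the neutrophil genes. edgeR called 0 of the 71 tested marker genes in *WSD* against *C*, where 15 were at an unadjusted p under 0.05, 8 of 11 mesothelial and 5 of 8 endothelial genes among them (18.5% of all tested genes), and DESeq2 called 0. In *T* against *C* edgeR called 0, with 5 at an unadjusted p under 0.05 (8.63% of all tested genes) and 0 by DESeq2. edgeR called 0 in *T* + *WSD* against *WSD*, with 11 at an unadjusted p under 0.05 (20% of all tested genes), and DESeq2 called 5, 4 of them mesothelial. For the interaction edgeR called 0, with 3 at an unadjusted p under 0.05 (13.5% of all tested genes) and 1 by DESeq2.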
